A study of Mus musculus with 6 samples.

Results

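The chemokine Cxcl12 and its receptors Cxcr4 and Ackr3 were followed in sorted mesenchymal stromal cells (MSC) of the mouse lung. The 3 genes were selected on the measured Cxcl12 difference between the sorted populations compared below, so their levels and fold changes are given as a description, with no test. Of the 3 members, 2 had a row among the 20645 rows of the deposited gene table, Cxcl12 (ENSMUSG00000061353, chromosome 6) and Ackr3 (ENSMUSG00000044337, chromosome 1), and both passed the filter on low counts. Cxcr4 was not listed under its symbol, its Ensembl identifier or its NCBI gene number, and no value of it is given. Rows of the table have a count in at least 2 of the 6 libraries.

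RNA was sequenced from cells sorted as mG (membrane GFP, 3 libraries) and as mT (membrane TdTomato, 3 libraries). All libraries came from lungs of C57BL/6 mice of 1 genotype, Tbx4-rtTA/TetO-Cre/mT-mG, given doxycycline over the window from embryonic day 6.5 to postnatal day 1. In this system the lung mesenchyme gene Tbx4 drives a doxycycline-dependent activator, which turns on Cre, and Cre switches the reporter from red to green. Green cells are thus cells that recombined during that window or descend from them, and red cells are cells that did not recombine, whatever the reason. The labels give neither the age at dissociation nor whether replicate numbers are separate animals, so the p-values given for other genes measure only the spread between these libraries, which may be technical.

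CXCL12 is a secreted chemokine made largely by stromal cells, and it draws in and retains cells that carry CXCR4, a G protein-coupled receptor found on leukocytes, progenitors and some endothelial cells. ACKR3, formerly CXCR7, also binds CXCL12 but signals mainly through beta-arrestin and takes the ligand up for degradation. In the mouse bone marrow, reticular cells with abundant Cxcl12 form niches for blood stem cells, and Foxc1, Ebf1 and Ebf3 are known regulators of those cells.

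The 250 bases before the RefSeq transcript start of both listed members are shown because these genes differed in how they behaved between mG and mT. Both sequences come from RefSeq on GRCm38.p6, plus strand, 5′ to 3′. Cxcl12 spans chr6:117168285-117168534 and Ackr3 spans chr1:90203730-90203979. Letters are lower case and capitals mark matches on either strand to the TATA box (spelled TATAAA), to the GC box (spelled GGGCGG) or to the core letters of hypoxia response elements (spelled ACGTG, or with the first letter changed, GCGTG).
Cxcl12: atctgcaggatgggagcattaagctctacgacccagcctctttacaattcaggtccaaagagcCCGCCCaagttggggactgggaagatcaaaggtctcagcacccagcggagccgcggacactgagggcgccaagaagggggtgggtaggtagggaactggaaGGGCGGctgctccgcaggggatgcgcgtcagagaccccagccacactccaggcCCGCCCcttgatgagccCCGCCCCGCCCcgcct
Ackr3: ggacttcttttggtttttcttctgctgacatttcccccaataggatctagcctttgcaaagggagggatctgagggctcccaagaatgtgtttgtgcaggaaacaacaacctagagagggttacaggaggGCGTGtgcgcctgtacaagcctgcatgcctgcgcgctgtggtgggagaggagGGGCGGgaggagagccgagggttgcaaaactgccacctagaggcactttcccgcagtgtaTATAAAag
Cxcl12 held 5 GC box matches, of which neighbouring ones overlap at the start-site end, and none of the other motifs. Ackr3 held 1 match each to the GC box, the TATA box and GCGTG. Among 32851 promoters of the same length, 32.7% held a GC box, 12.4% the TATA letters, 28.2% GCGTG and 16.6% ACGTG. A forkhead motif, TGTTTAC, was present in 3.17% of promoters and in neither gene, and the palindromic EBF motif was present in 0.779% and in neither gene. No match says only that these letters are not in the window. The GC content was 64.4% for Cxcl12 and 54% for Ackr3, with a median of 52.4% over all promoters. These matches are letters in a window and were not tested as sites.

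Library totals ran from 16853561 to 19429138 counts. Some libraries stood apart, and mG replicate 2 did so in several genes. The pericyte marker Rgs5 had 1494 counts in mG replicate 2, against 14 and 1 in mG replicates 1 and 3. The fibroblast marker Lum had 546 counts in mG replicate 2, against 34 and 18. Foxc1 had 2401 counts in mG replicate 2, against 167 and 261 in mG replicates 1 and 3, and the collagen gene Col1a1 had 1121 CPM there, against 7046 and 7675. The endothelial genes Pecam1, Cdh5 and Emcn had 139, 134 and 662 counts in mT replicate 1 and no count in mT replicate 2. The MSC label was checked against 12 fibroblast and mesenchymal markers, all with a row. They summed to between 23710 and 44739 CPM in mG and between 25612 and 32536 CPM in mT. All 12 were tested and none passed in edgeR. The groups of 2 did not overlap, against 20.8% of all genes tested. Fn1 averaged 11477 CPM in mG and 4554 CPM in mT, and Thy1 averaged 236 and 506 CPM. Pdgfrb, a receptor of mural and stromal cells, averaged 675 ± 117 CPM in mG and 658 ± 68.0 CPM in mT (SD, n = 3 each). CPM are counts scaled to a common library size after TMM adjustment.

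Cxcl12 was detected in each library of both sorted populations and was 9.83-fold higher in mG. It had 765, 1537 and 1628 CPM in mG replicates 1 to 3, against 125, 81.8 and 194 CPM in mT replicates 1 to 3. Each mG library lay above each mT library, and the lowest mG value was 3.95 times the highest mT value. Group means were 1310 ± 474 CPM in mG and 133 ± 56.4 CPM in mT (SD, n = 3 each). The fitted log2 fold change, mG over mT, was 3.30 ± 0.45 (SE). It was 3.15 without mG replicate 2 and 3.04 without mT replicate 2. In bulk libraries, more cells with Cxcl12 and more Cxcl12 RNA per cell cannot be told apart.

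The counts behind these values were large. In mG replicates 1 to 3 they were 14026, 32821 and 27623, and mT replicates 1 to 3 had 2460, 1367 and 3229. Counting error alone is 0.552% to 0.844% of these counts in mG and 1.76% to 2.70% in mT. The spread between replicates was far wider, with a coefficient of variation of 36.2% in mG and 42.3% in mT. Of the 13566 genes tested, 65.1% varied less than Cxcl12 within mG and 86.0% varied less within mT. The within-group extremes differed 2.13-fold in mG and 2.36-fold in mT, so the spread inside a group was smaller than the gap between groups.

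Cxcl12 RNA made up 0.0731% to 0.174% of all counts in mG libraries and 0.00811% to 0.0191% in mT libraries. By the authors' RPKM, which divides by gene length, Cxcl12 was the gene of rank 460, 169 and 237 in mG replicates 1 to 3, against rank 2548, 3609 and 1785 in mT replicates 1 to 3, of 20645 rows. Its fold change was the 102nd highest of all genes tested. Among the 1919 tested genes with a mean above 100 CPM, 3 had a higher one. The authors' deposited table lists a log2 fold change of 3.29, GFP over RFP, which is the same direction as mG over mT.

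Libraries with the same replicate number can be set side by side. The mG library held 6.14 times the Cxcl12 CPM of the mT library for number 1, 18.8 times for number 2 and 8.41 times for number 3. The mT library with the lowest Cxcl12, replicate 2, gave the largest ratio. Of the genes tested, 9.97% had groups that did not overlap with mG higher, and 10.8% had them with mG lower. Cxcl12 was chosen for this difference, so these shares are the background only.

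**Figure D1:**
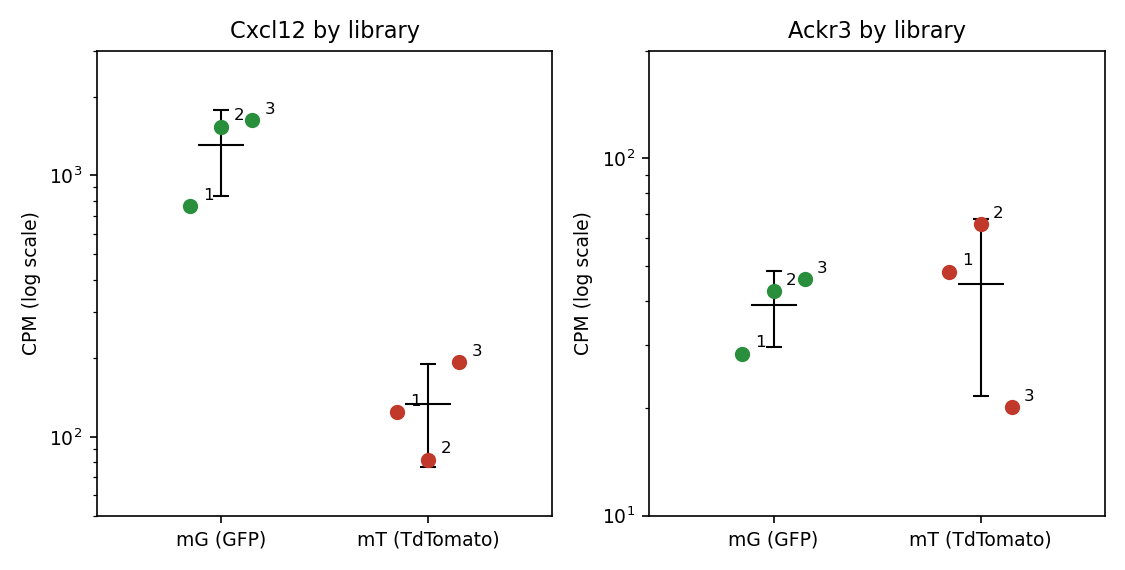
CPM of Cxcl12 (left) and Ackr3 (right) on log axes, mG left of mT, with 1 point per library labelled by its replicate number and a bar for the mean ± SD of 3 libraries. Cxcl12 ran from 765 to 1628 CPM in mG and from 81.8 to 194 CPM in mT with no overlap, while the Ackr3 values of mT, 20.1 to 65.4 CPM, enclosed those of mG, 28.4 to 46.0 CPM.

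Ackr3, the scavenging receptor, was present in every library, and its levels in mG and mT overlapped. It had 28.4, 42.5 and 46.0 CPM in mG replicates 1 to 3, against 48.2, 65.4 and 20.1 CPM in mT replicates 1 to 3. The mG values fell inside the range of the mT values. Group means were 39.0 ± 9.30 CPM in mG and 44.6 ± 22.9 CPM in mT (SD, n = 3 each). The fitted log2 fold change, mG over mT, was -0.19 ± 0.42 (SE), and 43.0% of genes tested had one no larger in size. The authors' deposited table lists -0.20, GFP over RFP.

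The 3 mT libraries disagreed on Ackr3 more than on Cxcl12. Ackr3 varied 3.26-fold among mT libraries and 1.62-fold among mG libraries, and 90.0% of tested genes had a lower coefficient of variation within mT. Its counts were 521, 907 and 780 in mG replicates 1 to 3, against 952, 1092 and 335 counts in mT replicates 1 to 3, for which counting error is at most 5.46%. By replicate number, mG held 0.589, 0.650 and 2.29 times the mT level for numbers 1 to 3. The direction therefore differed between numbers, and the fitted log2 fold change was 0.18 without mT replicate 2, -0.54 without mT replicate 3 and -0.28 without mG replicate 2.

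Endothelial cells also carry Ackr3, so their markers are given beside it. Of 12 endothelial markers 10 had a row, and these summed to between 281 and 458 CPM in mG and between 329 and 499 CPM in mT, mostly from Flt1 and Eng. Of the genes that define the lineage, in mG Pecam1 had 3 counts in replicate 2 alone and Cdh5 had none in any library, where 3 counts are 0.141 to 0.177 CPM. In mT, Pecam1 and Cdh5 had 7.04 and 6.79 CPM in replicate 1, 1.68 and 0.659 CPM in replicate 3, and no count in replicate 2. Ackr3 was highest, at 65.4 CPM, in mT replicate 2. That library had no count of Pecam1, Cdh5 or Emcn, but 52.3 CPM of Flt1 and 276 CPM of Eng. Any endothelial part in the Ackr3 level was not tested. Leukocyte markers were low, with 8 of 16 in the table and a sum of 9.21 to 16.02 CPM in mG and 11.8 to 19.1 CPM in mT, and the pan-leukocyte gene Ptprc had at most 6 counts in a library. Of these markers 3 were tested, and the groups of each did not overlap, against a background of 20.8% of all genes tested, but none passed. Csf1r averaged 7.72 ± 1.43 CPM in mG and 1.62 ± 0.638 CPM in mT (adjusted p = 0.0728). Cd68 averaged 1.05 ± 0.395 CPM in mG and 0.468 ± 0.0444 CPM in mT (adjusted p = 0.311). Lyz2 averaged 3.99 ± 2.35 CPM in mG and 13.2 ± 3.59 CPM in mT (adjusted p = 0.234).

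Summed levels of further cell type markers overlapped between mG and mT. Pericyte and smooth muscle markers, 11 of 12 with a row, summed to 2171 to 14234 CPM in mG and 6497 to 9521 CPM in mT. Mesothelial markers, 4 of 7 with a row, summed to 6.46 to 80.3 CPM in mG and 9.35 to 16.7 CPM in mT. Of the epithelial markers 3 of 12 had a row, Epcam had none, and the sum was 0.763 to 3.98 CPM in mG and 1.80 to 3.35 CPM in mT. The part of any of these cell types in the Cxcl12 and Ackr3 levels was not tested.

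Ligand and receptor can be compared within a library only per length. By the authors' RPKM, Cxcl12 averaged 92.4 ± 33.5 in mG and 9.44 ± 4.03 in mT, and Ackr3 averaged 10.7 ± 2.56 in mG and 12.3 ± 6.27 in mT (SD, n = 3 each). In mG the ligand exceeded the receptor 6.90-, 9.28- and 9.08-fold in replicates 1 to 3, a mean log2 ratio of 3.06 ± 0.24. In mT the ratio was 0.663, 0.321 and 2.47 in replicates 1 to 3, a mean log2 ratio of -0.31 ± 1.49 (SD). Ligand and receptor levels therefore separated in mG libraries and were intermixed in mT libraries.

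The absolute size of this ratio rests on the length. The table lists 13545 bases and 14 exons for Cxcl12 and 3474 bases and 5 exons for Ackr3, while the longest protein-coding transcripts in GENCODE M21 have 5627 and 3065 bases. With those lengths the mean log2 ratio was 4.15 in mG and 0.78 in mT. The ratio of mT replicate 1 then became 1.41, above 1, while that of mT replicate 2 stayed below 1 at 0.682. The difference in the log2 ratio, mG minus mT, was 3.37 with either length. It is the same contrast as the fold changes above and adds no independent evidence.

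**Figure D2:**
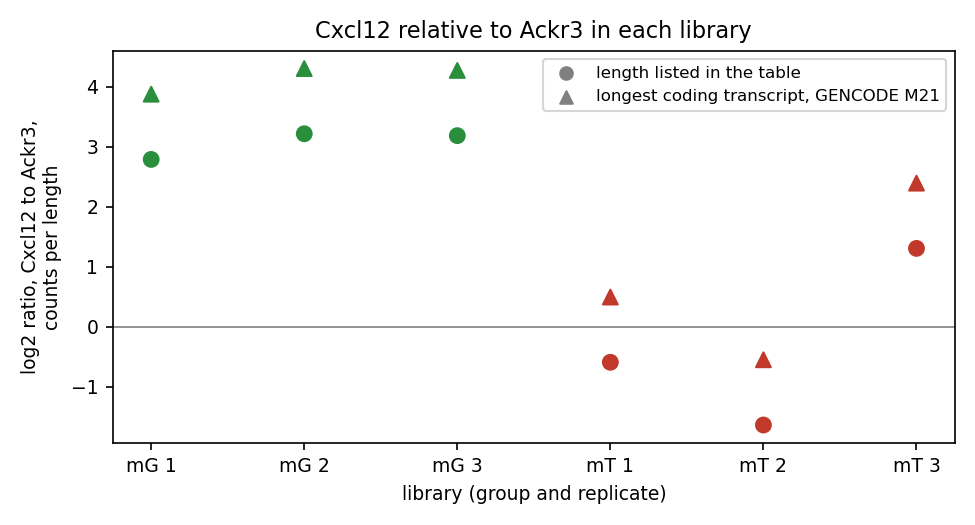
Log2 ratio of Cxcl12 to Ackr3, counts per length, in each library (mG left, mT right), with circles for the lengths listed in the table and triangles for the longest protein-coding transcripts. The 3 mG libraries lie between 2.79 and 3.21 with listed lengths, and the 3 mT libraries between -1.64 and 1.30.

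Per length, Cxcl12 had the highest mean of the CXC chemokines with a row in both populations and Cxcl14 the next, with no overlap in mG, while in mT the highest Cxcl14 value, 7.91 RPKM, lay above the lowest Cxcl12 value, 5.77 RPKM. Of 14 others looked for, 6 had a row, and Cxcl5, Cxcl10 and Cxcl13 had at most 6 counts in a library. Cxcl14, a chemokine of epithelial and stromal tissues, had 2.21 ± 3.32 RPKM in mG and 5.70 ± 2.32 RPKM in mT (SD, n = 3 each). It had 382, 44 and 1 counts in mG replicates 1 to 3, against 539, 189 and 339 counts in mT replicates 1 to 3, so mG replicates 2 and 3 were low and mG replicate 1 lay within the mT range. Its log2 fold change was -1.36 ± 1.34 (SE) with adjusted p = 0.734. Cxcl16 and Cxcl1 were at most 0.834 and 1.06 RPKM in any library, with adjusted p = 0.672 and 0.411.

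Of 24 other chemokine and chemoattractant receptors, 9 had a row, 2 were tested and 0 passed in edgeR, at an unadjusted p under 0.05 or in DESeq2. Over all genes these rules gave 0.907%, 14.6% and 5.95%. Cmklr1, a receptor for chemerin, had 6.93 ± 4.05 RPKM in mG and 7.02 ± 1.28 RPKM in mT (SD, n = 3 each), and an adjusted p of 0.994. Ackr4, another scavenging receptor, had 3, 75 and 8 counts in mG replicates 1 to 3, against 73, 23 and 25 counts in mT replicates 1 to 3 (adjusted p = 0.861). The other 7, Ccrl2, Ccr9, Ccr10, Cxcr6, Cx3cr1, Xcr1 and Gpr182, had at most 17 counts in any library. By mean RPKM, Ackr3 was thus first and Cmklr1 second among the receptors with a row in both groups. Their ranges overlapped in both groups, at 7.81 to 12.6 for Ackr3 and 3.91 to 11.5 for Cmklr1 in mG, and at 5.56 to 18.0 for Ackr3 and 5.76 to 8.32 for Cmklr1 in mT.

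Genes around the axis were read from the fit over all genes, in 8 lists that together held 171 different genes, 121 of them tested. With edgeR's quasi-likelihood test and an adjusted p of 0.05, 2 of these 121 passed, Ndst3 and Ebf1, both lower in mG, and none was higher. This is 1.65% of the listed genes, against a background of 0.907% over all genes tested, of which 0.708% were lower in mG. With the replicate number as a block the same 2 genes passed, against 0.796% of all genes. DESeq2 called 21 of 124 list members with an adjusted p, or 16.9% (11 higher in mG, 10 lower), against a background of 960 of 16148 genes, or 5.95%. At an unadjusted p under 0.05 in edgeR there were 26 of the 121, or 21.5%, against a background of 14.6%. Groups did not overlap in 31 of the 121, or 25.6%, against a background of 20.8%. Their median log2 fold change was -0.02, and that of all genes tested was 0.02. The lists were chosen with earlier results of these data known, and all these rules read the same libraries. List shares above those of all genes are therefore a description only, and whether the lists differ from other genes was not tested.

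**Figure D3:**
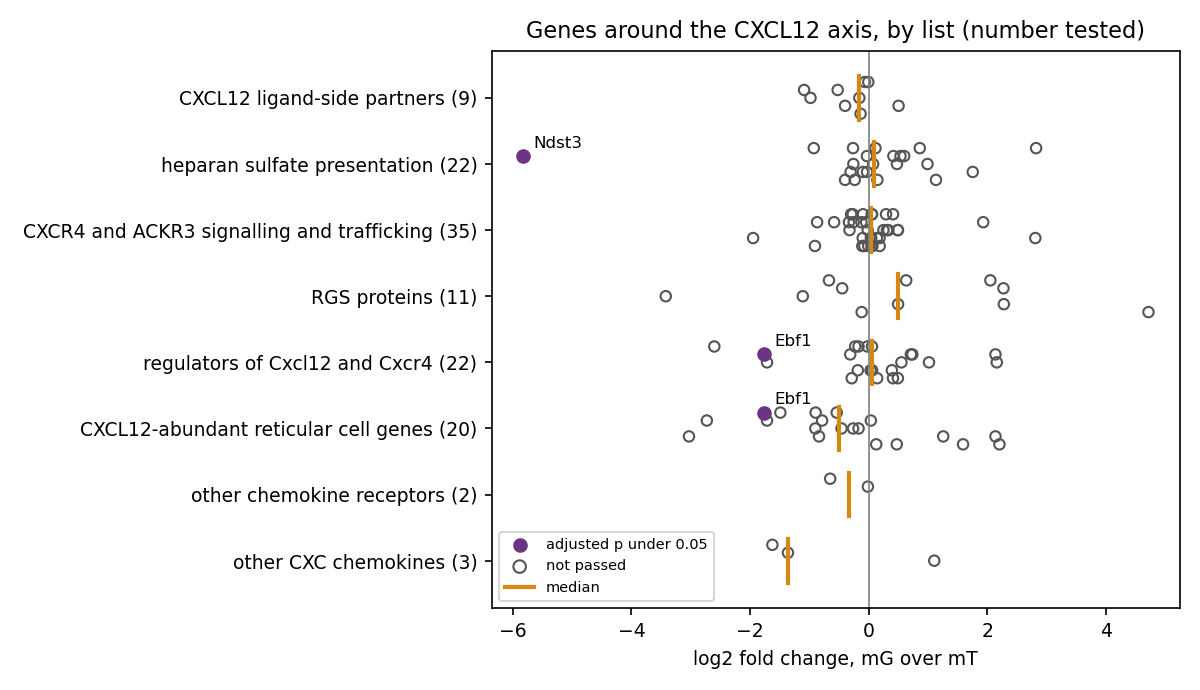
Log2 fold change, mG over mT, of the tested genes in the 8 lists around Cxcl12, 1 point per gene with vertical offsets for legibility, a filled point where edgeR's adjusted p was under 0.05 and an orange bar at each list's median. Ndst3 and Ebf1 (drawn in each list that holds it) are filled and lie at -5.82 and -1.77, and medians lie between -1.36 and 0.49.

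Partners of the ligand showed no call in edgeR or DESeq2 with all libraries, against 0.907% and 5.95% of all genes. Of 16 genes that cleave, bind or share receptors with CXCL12 or ACKR3, 11 had a row, 9 were tested and 0 passed, 0 of them also at an unadjusted p under 0.05, with a median log2 fold change of -0.16, and DESeq2 called 0. Dpp4, the peptidase that inactivates CXCL12, and Cd74, a receptor for MIF, were not listed. Mmp2, a metalloproteinase that can cleave CXCL12, had 209, 627 and 149 CPM in mG replicates 1 to 3, against 700, 536 and 860 CPM in mT replicates 1 to 3. The value of mG replicate 2 overlapped mT, and the adjusted p was 0.429, or 0.0348 without mG replicate 2. With any other library left out Mmp2 did not pass. Mif, a cytokine that binds both CXCR4 and ACKR3, averaged 147 ± 73.9 CPM in mG and 162 ± 32.5 CPM in mT (adjusted p = 0.939). Hmgb1, which can form a complex with CXCL12, and Cd44, a hyaluronan receptor, had adjusted p = 0.466 and 0.475.

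Heparan sulfate chains hold CXCL12 at cell surfaces. The list for their synthesis, editing and core proteins also held Bgn, a proteoglycan of other chains. Of its 22 tested genes 1 fell in mG in edgeR, against 0.708% of all genes tested. This was Ndst3, an N-deacetylase/N-sulfotransferase, with 1, 5 and 3 counts in mG replicates 1 to 3, against 218, 180 and 100 counts in mT replicates 1 to 3. It was close to the floor in mG and well above it in each mT library. Its means were 0.155 ± 0.0918 CPM in mG and 9.27 ± 2.84 CPM in mT (SD, n = 3 each), with a fitted difference of -5.82 ± 0.56 (log2, SE) and adjusted p = 0.0138. The call was lost without mG replicate 3 (adjusted p = 0.0747), mT replicate 1 (0.0577) or mT replicate 2 (0.0634).

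The other genes of this list tested in edgeR did not pass, while DESeq2 also called Sdc4, Hs3st1 and Hs3st3a1, higher in mG, and Glce, lower in mG. Hs3st1 was not tested in edgeR, with 7, 11 and 15 counts in mG replicates 1 to 3, against 0, 0 and 1 in mT. With Ndst3, DESeq2 called 5 of 23 genes of this list, or 21.7%, against 5.95% of all genes. An unadjusted p under 0.05 in edgeR was found for 4 of 22, or 18.2%, against 14.6% of all genes tested. Sdc4, the core protein syndecan-4, had 522, 273 and 512 CPM in mG replicates 1 to 3, against 186, 160 and 250 CPM in mT replicates 1 to 3. The groups did not overlap, and the adjusted p was 0.173, or 0.0389 without mG replicate 2. With any other library left out Sdc4 did not pass. Hs3st3a1, a 3-O-sulfotransferase, averaged 5.67 ± 2.49 CPM in mG and 0.794 ± 0.429 CPM in mT (adjusted p = 0.111), and Glce, the glucuronyl epimerase, averaged 49.4 ± 10.8 CPM in mG and 93.9 ± 17.3 CPM in mT (adjusted p = 0.135). Hspg2, perlecan, averaged 1657 ± 764 CPM in mG and 1691 ± 280 CPM in mT (adjusted p = 0.988).

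None of 35 tested genes of receptor signalling and trafficking passed in edgeR, against 0.907% of all genes tested, and their median log2 fold change was 0.04. An unadjusted p under 0.05 was found for 6 of them, or 17.1%, against 14.6% of all genes tested. DESeq2 called 4 of 35, or 11.4%, against 5.95% of all genes, with Gnai1 and Pik3r5 higher in mG and Gng2 and Ptk2b lower in mG. Gnai1, an inhibitory G protein subunit through which CXCR4 signals, averaged 110 ± 38.8 CPM in mG and 28.8 ± 15.98 CPM in mT (adjusted p = 0.163). Gng2, a G protein gamma subunit, averaged 10.1 ± 7.07 CPM in mG and 39.1 ± 10.8 CPM in mT (adjusted p = 0.228), and the focal adhesion kinase relative Ptk2b averaged 22.1 ± 3.34 CPM in mG and 40.5 ± 7.32 CPM in mT (adjusted p = 0.117). These 3 genes had the smallest p of the list, and their groups did not overlap. Groups did not overlap in 9 of the 35, against a background of 20.8% of all genes tested. Arrb2, a beta-arrestin that ACKR3 recruits, had 4.26 ± 0.669 CPM in mG and 3.03 ± 0.778 CPM in mT (adjusted p = 0.573). The other beta-arrestin gene, Arrb1, had 27.3 ± 10.5 CPM in mG and 40.9 ± 8.72 CPM in mT (adjusted p = 0.440).

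The list of RGS proteins, which end G protein signals, also held the binding protein gene Rgs7bp. It gave 0 calls among 11 tested in edgeR, against 0.907% of all genes tested. Fitted values were higher in mG for 6 and lower for 5. The median log2 fold change, 0.49, is that of Rgs17, which had 94, 969 and 43 counts in mG replicates 1 to 3, against 394, 109 and 187 in mT. Of the 11 tested, 3 or 27.3% had an unadjusted p under 0.05, against 14.6% of all genes tested. DESeq2 called 2 of 9 with an adjusted p, Rgs3 and Rgs16, both lower in mG, or 22.2% against 5.95% of all genes. Rgs16 had 5.40, 18.5 and 1.12 CPM in mG replicates 1 to 3, against 72.6, 123 and 74.3 CPM in mT replicates 1 to 3. Each mG library lay below each mT library, and the adjusted p was 0.158, or 0.0366 without mG replicate 2. With any other library left out Rgs16 did not pass. Rgs3 averaged 24.2 ± 3.23 CPM in mG and 52.2 ± 18.0 CPM in mT (adjusted p = 0.152), and Rgs20 averaged 2.31 ± 1.66 CPM in mG and 0.467 ± 0.353 CPM in mT (adjusted p = 0.275).

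Of the known regulators of Cxcl12 and Cxcr4, 1 of 22 tested passed in edgeR, against 0.907% of all genes tested. Ebf1, a transcription factor of marrow reticular cells and pericytes, fell in mG. It had 39.0, 50.4 and 55.8 CPM in mG replicates 1 to 3, against 132, 189 and 174 CPM in mT replicates 1 to 3. The groups did not overlap, with a fitted difference of -1.77 ± 0.20 (log2, SE) and adjusted p = 0.0234. The call held without mG replicate 2 (adjusted p = 0.0304), and without any 1 of the other libraries the adjusted p was 0.0519 to 0.108.

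Other regulators did not pass in edgeR, while DESeq2 also called Foxf1, Nfkb2 and Nr2f2, higher in mG, and Epas1, lower in mG. With Ebf1, DESeq2 called 5 of 22 regulators, or 22.7%, against 5.95% of all genes. An unadjusted p under 0.05 in edgeR was found for 7 of 22, or 31.8%, against 14.6% of all genes tested. Nfkb2, which encodes an NF-kappaB subunit of the noncanonical pathway, averaged 53.4 ± 3.60 CPM in mG and 32.7 ± 1.76 CPM in mT (adjusted p = 0.0606). The nuclear receptor Nr2f2 averaged 120 ± 26.3 CPM in mG and 59.5 ± 5.64 CPM in mT (adjusted p = 0.0795). Nfkb2 and Nr2f2 had adjusted p-values below 0.05 without mG replicate 2, at 0.0389 and 0.0268, and passed with no other library left out. Foxf1, a lung mesenchyme factor, averaged 49.7 ± 2.21 CPM in mG and 11.1 ± 7.93 CPM in mT (adjusted p = 0.137). Hif1a, the hypoxia factor that raises Cxcl12 and Cxcr4 in other settings, averaged 152 ± 26.0 CPM in mG and 146 ± 18.5 CPM in mT (adjusted p = 0.941). Epas1, the related hypoxia factor HIF-2alpha, had 8.61, 52.1 and 13.9 CPM in mG replicates 1 to 3, against 84.3, 174 and 196 CPM in mT replicates 1 to 3. The groups did not overlap, and the adjusted p was 0.180 in edgeR and 0.00190 in DESeq2.

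**Figure D4:**
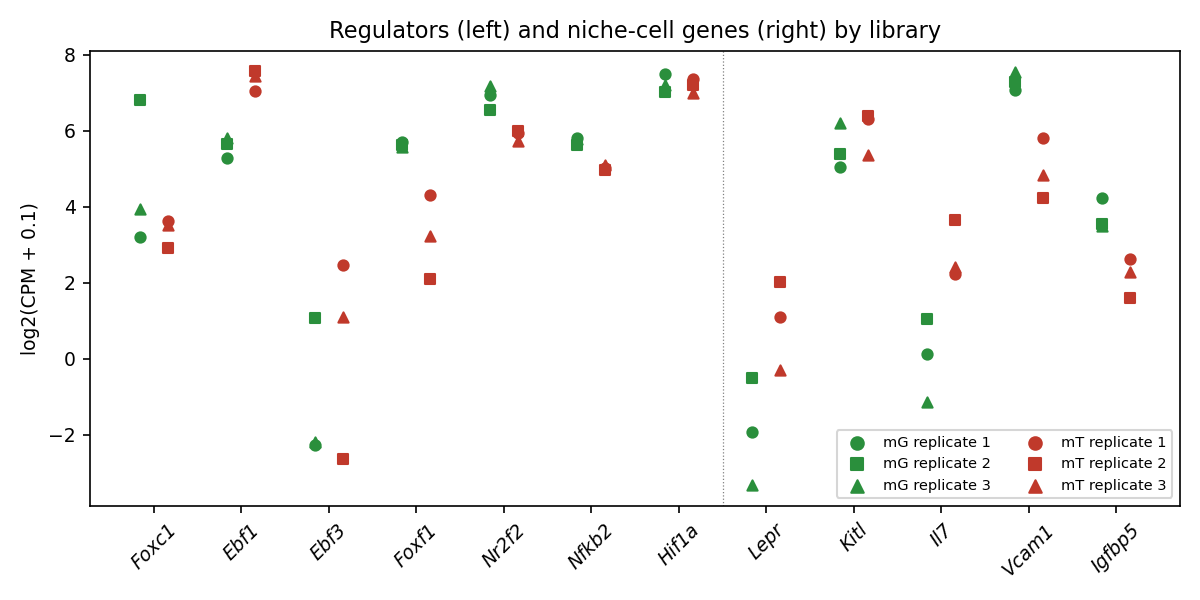
Log2(CPM + 0.1) of regulators of Cxcl12 (left of the dotted line) and of genes of marrow reticular niche cells (right of it), mG in green left of mT in red, with a symbol for each replicate number. Ebf1 passed edgeR's test, and Foxc1 stands apart in mG replicate 2 alone, at 112 CPM against 9.10 and 15.4 CPM in mG replicates 1 and 3.

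Genes that accompany Cxcl12 in reticular cells of the mouse marrow gave calls that depended on the tool. Of 22 such genes 20 were tested, and in edgeR 1 fell (Ebf1, above) and 0 rose. Over all genes tested 0.708% were called lower in mG and 0.199% higher. The median log2 fold change of the 20 was -0.50. DESeq2 called 6 of 20 with an adjusted p, or 30%, against 5.95% of all genes. Of these, Alpl, Igfbp5 and Vcam1 were higher in mG and Cdh11, Ebf1 and Il7 lower in mG. Alpl was not tested in edgeR, with 9, 27 and 7 counts in mG replicates 1 to 3, against 2, 0 and 0 in mT. An unadjusted p under 0.05 in edgeR was found for 7 of 20, or 35%, against 14.6% of all genes tested. Fitted values were lower in mG for 13 and higher for 7, against 6367 lower and 7199 higher over all genes tested. Foxc1 averaged 45.7 ± 58.0 CPM in mG and 10.4 ± 2.61 CPM in mT (adjusted p = 0.365), and its log2 fold change of 2.14 was 0.22 without mG replicate 2. Ebf3 had 2, 43 and 2 counts in mG replicates 1 to 3, against 107, 1 and 34 counts in mT replicates 1 to 3 (adjusted p = 0.695).

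The leptin receptor gene Lepr, which marks these marrow cells, had 3, 13 and 0 counts in mG replicates 1 to 3, against 40, 66 and 12 counts in mT replicates 1 to 3. It was near the floor in mG, and the adjusted p was 0.283. Kitl, the stem cell factor, averaged 49.7 ± 21.6 CPM in mG and 68.2 ± 23.7 CPM in mT (adjusted p = 0.679), and the lymphoid cytokine Il7 averaged 1.10 ± 0.814 CPM in mG and 7.40 ± 4.33 CPM in mT (adjusted p = 0.155). Vcam1, an adhesion molecule for blood cells, averaged 159 ± 25.8 CPM in mG and 34.5 ± 19.6 CPM in mT, with adjusted p = 0.0770 in edgeR and 1.84e-05 in DESeq2. Igfbp5, a binding protein of insulin-like growth factors, averaged 13.8 ± 4.14 CPM in mG and 4.58 ± 1.58 CPM in mT, with adjusted p = 0.121 in edgeR and 0.00192 in DESeq2.

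The genes whose log2 CPM followed that of Cxcl12 most closely over the 6 libraries, among 8972 candidates, were Tma7, Egln2, Ninl, Tmco1 and Il6ra, with Pearson r of 0.982 to 0.993. The 6 libraries fall into 2 separate groups for Cxcl12, so these values carry the group difference, and within-group deviations correlated at 0.781 to 0.955. The size of the differences varied widely. Ninl averaged 40.7 ± 12.7 CPM in mG and 9.15 ± 1.61 CPM in mT, and Il6ra, the interleukin-6 receptor gene, averaged 20.2 ± 4.23 CPM in mG and 10.4 ± 0.973 CPM in mT. Egln2, an oxygen-sensing prolyl hydroxylase, averaged 61.0 ± 0.925 CPM in mG and 56.7 ± 0.225 CPM in mT (SD, n = 3 each), so a like order of libraries came with a small difference. The measure is scale-free and was read as a description only.

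For Ackr3 the closest genes were Cspg4, Prdm15, Pcdh1, Alg14 and Tprkb, with Pearson r of 0.954 to 0.970 over the 6 libraries. Cspg4, the NG2 proteoglycan of pericytes and immature stromal cells, was the first of them and moved over the widest range. It had 2350, 3108 and 3043 counts in mG replicates 1 to 3, as against 3262, 4331 and 1360 counts in mT replicates 1 to 3. Like Ackr3 it was lowest in mT replicate 3 and highest in mT replicate 2. Libraries, depth and normalisation are shared by all these genes, and with 6 libraries many genes reach a high r.

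**Figure D5:**
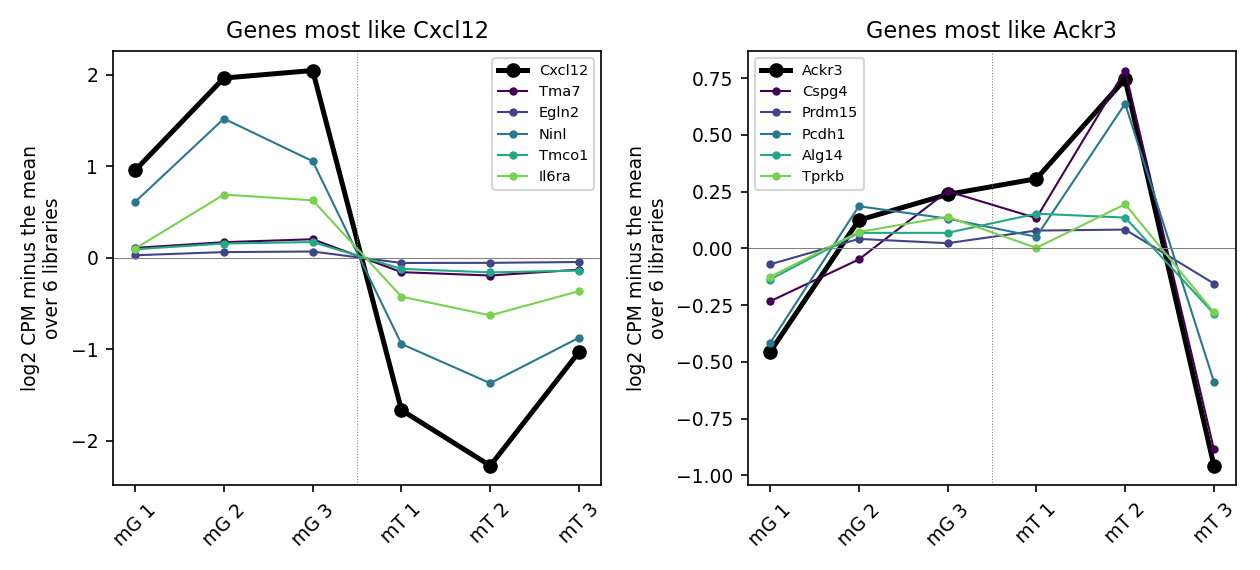
Log2 CPM minus the gene's mean over the 6 libraries for Cxcl12 (left) and Ackr3 (right), in black, and for the 5 genes with the highest Pearson r to each, in colour. Lines join libraries only to show a gene's profile, since replicates have no order. Profiles on the left separate mG from mT, and those on the right are lowest in mT replicate 3.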

How the data were processed

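Lung MSC were dissociated with enzymes, sorted by reporter colour and sequenced from unstranded libraries, per the labels' protocols. Trimmomatic 0.38, STAR, FastQC 0.11.9, edgeR 4.0 and cutadapt 5.0 are listed, with no role, per the submitters' processing notes. The build, the annotation and what counted the reads are stated nowhere in the sources used here, so only chromosomes are printed for table rows, and promoter coordinates are those of RefSeq on GRCm38.p6. The authors deposited whole-number counts per gene for each library, and values named RPKM per the file headers, a unit scaled by length and depth. The deposited table also holds a signal named TMM (scaled counts), log2 fold changes and log2 mean levels, a likelihood-ratio score, a p-value with its adjustment and its −log10; of these only the authors' log2 fold changes of the members are printed. It has 0 columns of other series. Rows without a symbol hold 0.0130% to 0.0352% of counts.

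Counts of mG and mT were compared by quasi-likelihood fits (glmQLFit and glmQLFTest of edgeR 4.0.16, R 4.3.3), with TMM factors of 0.926 to 1.13, filterByExpr (minimum count 10), and p-values adjusted by Benjamini-Hochberg across the 13566 genes tested (threshold 0.05). Adjusted p-values are edgeR's unless another tool is named, and DESeq2 shares are over genes to which it gave an adjusted p. An SE is the size of the log2 fold change divided by the square root of F. The fit was tested on simulated data. In RefSeq no gene overlaps Cxcl12 or Ackr3, and other genes with an antisense partner cannot be told from it without strand. Intervals and floors cover counting error only, and 3 counts are 0.141 to 0.180 CPM. The ratio of members adds 0.5 to each count.

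The members and lists were chosen with earlier results of these data known. Besides the members, the text names from each list the genes that passed and the 3 others with the smallest p, 11 genes fixed by name, and the 5 genes most like each member whose log2 CPM averaged 3 or more. Flt1, Eng, Emcn, Csf1r, Lyz2, Epas1, Pik3r5, Hs3st1, Alpl, Cdh11, the chemokine genes with few counts, and Cd74 were named after their values were seen. So were Cd68, Arrb1, Rgs5, Rgs17, Lum, Fn1 and Thy1. Bgn and Rgs7bp were named only to describe their lists. Libraries of the same number correlated in their deviations from group means at 0.241, 0.183 and 0.299, and those of different number at -0.185 to -0.0537. On that ground libraries of the same number are set side by side. The main fit leaves the number out, so its p-values are unpaired, and only the replicate block uses it. The meaning of a number is left unsaid in the labels. Alternatives were RLE and upper-quartile factors, limma-voom (limma 3.58.1), DESeq2 1.42.0, no filter, a floor of 1 CPM for 3 libraries, the replicate number as a block, and each library left out.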

Additional observations from a re-analysis of the deposited data

How the results depend on the processing

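The log2 fold change of Cxcl12, 3.30, was 3.29 to 3.30 under the other normalizations, filters and tools and with the replicate block (3.30), and 3.04 to 3.67 with 1 library left out. That of Ackr3, -0.19, was -0.20 to -0.069 (-0.09 with the block) and -0.54 to 0.18. The count of 123 genes called was 960 with DESeq2, 108 with the block and 20 to 362 with 1 library left out. The count of 2 list members called was 21 with DESeq2 (11 higher and 10 lower in mG), 2 with the block and 0 to 10 with 1 library left out, the 10 being without mG replicate 2. The mean log2 ratio of Cxcl12 to Ackr3 was 2.98 to 3.20 in mG and -1.12 to 0.35 in mT with 1 library left out, and their difference 2.71 to 4.18. With the longest coding transcripts, an alternative chosen after seeing the data, it was 4.15 and 0.78, since that length is shorter for Cxcl12. Among 34 named genes other than the members, 8 of 439 values under alternatives had the other direction, each in a gene near 0 with 1 library left out. Left-out values ran from -0.59 to 0.26 for Cmklr1, -0.084 to 0.15 for Hif1a, -0.47 to 0.21 for Mif and -0.35 to 0.28 for Hspg2. DESeq2 called 14 named genes that the quasi-likelihood test did not. The cause of these differences was not tested. The block changed the call of 1 named gene, Tbx4, and of no other. Leaving out mG replicate 2 gave a call to 5 named genes, Mmp2, Sdc4, Rgs16, Nfkb2 and Nr2f2. Leaving out any other library gave no named gene a new call. Planned ratios with Cxcr4 were not run, as it has no row.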

Other observations

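Tbx4, whose regulatory sequence drives the reporter switch, had 839, 121 and 564 counts in mG replicates 1 to 3, against 188, 20 and 120 counts in mT replicates 1 to 3. Its log2 fold change was 2.23 ± 0.93 (SE) with adjusted p = 0.343 in edgeR's quasi-likelihood test, and adjusted p = 0.0280 with the replicate number as a block. Both the lowest Tbx4 and the lowest Cxcl12 of mT were in replicate 2, whereas mG replicate 2 had the lowest Tbx4 of mG and a Cxcl12 level of 1537 CPM.

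By RefSeq order, the 3 nearest genes on each side of Ackr3 were not listed under those names, and of the 6 around Cxcl12 only the long noncoding RNA 6820426E19Rik was. It had 2, 4 and 3 counts in mG replicates 1 to 3 and none in mT, too few to be tested.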
